A study of Mus musculus with 6 samples.

Results

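The genes described here are 34 genes of triglyceride synthesis, lipolysis and lipid droplets, measured in Zip13-KO and WT mice in iWAT, the white adipose tissue of the groin. The members were a fixed list of gene symbols, each taken through array probes designed on a RefSeq transcript of that gene. All 34 had such a probe, and 33 passed the filter on dim probes, out of 15306 genes tested in all. The study hybridized iWAT RNA of WT mice and Zip13-KO littermates, 10 weeks old, to 1-colour Agilent arrays, 3 per genotype. Both genotypes were on the C57BL/6J background after at least 7 generations of backcrossing, and all mice ate powdered food because Zip13-KO mice have missing teeth. The Zip13-KO allele carries a Neo cassette in place of exons 6 to 8 and is present in every cell of the animal, so the design does not separate an action in fat cells from one elsewhere. The labels name a standard and a high-fat food without saying which of them these mice received, and they do not give the sex. The number of mice is given as n = 3 per genotype, while the labels speak of triplicates without naming animals, so p-values measure the spread between these 6 arrays, which is that between mice only if each array stands for 1 mouse.

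Adipocytes store fatty acids as triglyceride. Glycerol 3-phosphate, made from glucose, from pyruvate or from glycerol that enters the cell, is acylated in steps to phosphatidic acid, which lipins convert to diacylglycerol and DGAT enzymes to triglyceride. Triglyceride is packed into droplets coated by perilipins and CIDE proteins. Lipases remove the fatty acids one after another, ATGL (Pnpla2) first, hormone-sensitive lipase (Lipe) next and monoglyceride lipase (Mgll) last, and in thermogenic adipocytes this supplies fuel to mitochondria and free fatty acids to UCP1.

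Slc39a13, which encodes ZIP13, had a mean log2 intensity of 10.96 ± 0.30 in the WT and 6.63 ± 0.15 in the Zip13-KO group (SD, n = 3 each), which fits the labels. Whether its single probe lies within the deleted exons was not established. The arrays shared 1 slide and 1 scan, no spot was saturated, and 58.8 to 63.2% of the spots on an array were well above background. The first number of the slide position was 1 for the WT arrays and Zip13-KO replicate 1, and 2 for Zip13-KO replicates 2 and 3. The defining adipocyte genes Adipoq, Fabp4 and Cfd lay above 16 on the log2 scale on every array, as in adipose tissue of any depot. No marker of the inguinal depot was examined.

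Values are log2 of the background-corrected signal of a probe after quantile normalization, and differences are Zip13-KO minus WT on this scale. Levels of different probes are not compared with each other. A gene was called when limma's adjusted p was under 0.05 over all genes tested and the change was more than 1.5-fold, 0.58 on the log2 scale. Among all genes tested, 10.3% were called higher and 8.38% lower, and the median log2 fold change was -0.00. Of the 33 members tested, 20 were called higher and 2 lower, and 11 were not called. The members' median log2 fold change was 0.86, and 29 of them lay above 0. Every Zip13-KO array lay above every WT array for 26 members, a pattern that 29.2% of all genes tested showed, and below every WT array for 2 members, against 25.9%. Glycerol supply had 4 higher members of 5 tested and a median of 1.17. Esterification had 5 higher and 1 lower of 10, with a median of 1.102. Lipases and their regulators had 6 higher and 1 lower of 9, with a median of 0.86, and droplet coat and formation had 5 higher of 9, with a median of 0.71. The members with the largest rise were the droplet proteins Plin5 and Cidea, and the members that fell were the lipin Lpin2 and the ATGL inhibitor Hilpda. In bulk tissue, a change in the number of cells of a type and a change in RNA per cell cannot be told apart.

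**Figure D1:**
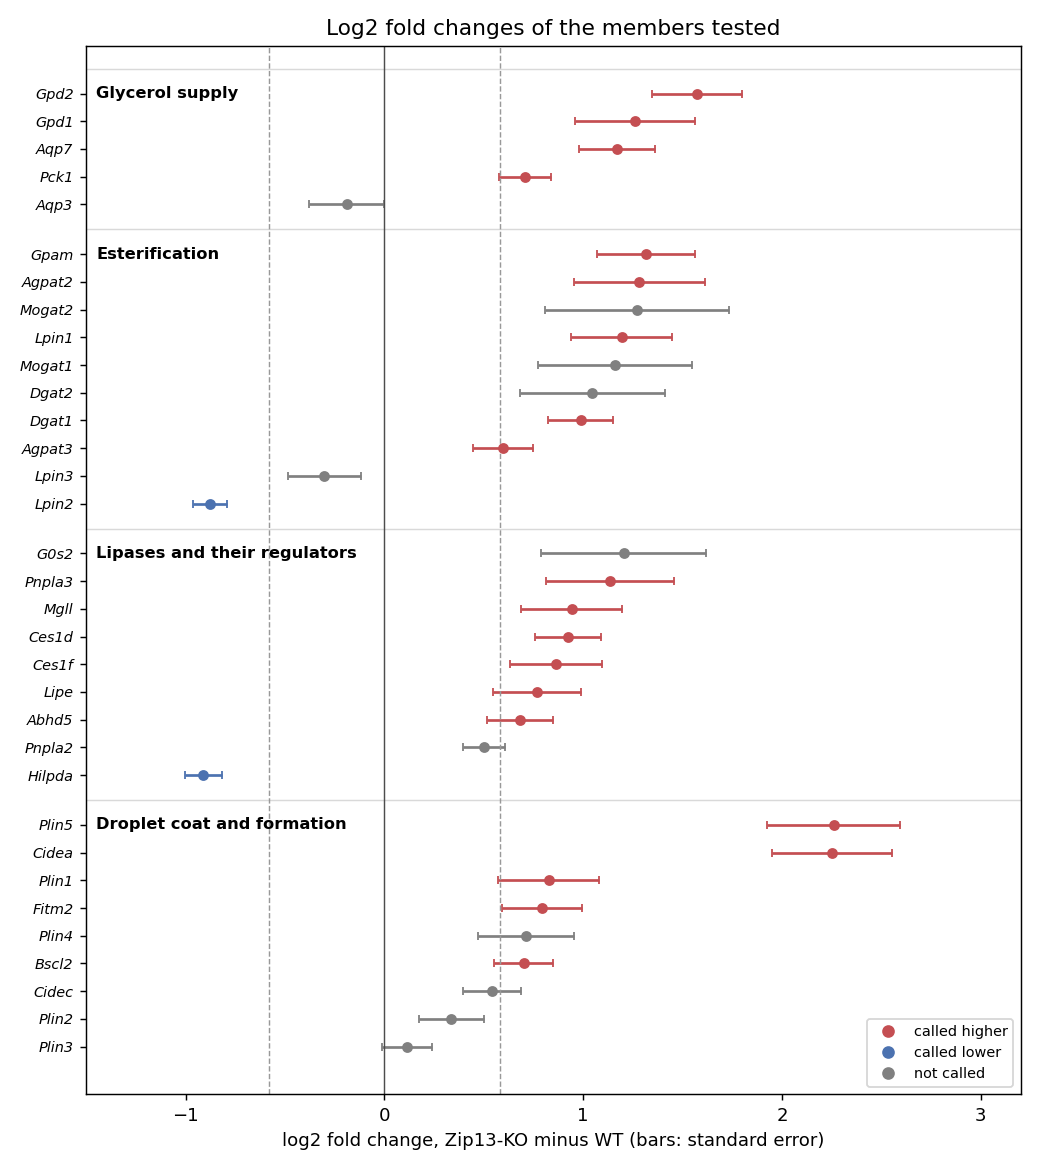
Log2 fold change of each of the 33 members tested, Zip13-KO minus WT (x axis), with the standard error of the limma fit as bars, grouped by role. Dashed lines mark a 1.5-fold change, red points were called higher (20), blue points lower (2) and grey points were not called (11). Plin5 and Cidea lie above 2, and Lpin2 and Hilpda near -0.9.

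The promoters of the members were read for short binding motifs of factors known to act on fat genes. The RefSeq table for GRCm38.p6, which gives 250 bases before and 50 after a start site, held 40 promoters for 27 of the 34 members. Ces1d, Ces1f, Cidea, Dgat1, Dgat2, Gpd1 and Mogat2 were not matched. Both strands were searched, and no match of one motif overlapped a match of another in these promoters. The C/EBP letters TTGCNNAA were in 6 of the 40 promoters, which is 15%, against 10.8% of all 32851 promoters. They belong to Agpat3, Cidec, Gpam, Gpd2, Lpin2 and Plin1, of which 4 rose, Lpin2 fell and Cidec was not called. Of all 33 members tested, 20 were called higher, so 4 of 6 is near that share and says nothing particular of these genes. The full cyclic AMP response element, TGACGTCA, was in 1 promoter, that of Pnpla3, against 1.79% of all. Only exact matches were counted, so near matches, such as ttacgtca in the Pck1 promoter, were left out. The letters TCAAGGTCA of estrogen-related receptors were in 0 member promoters, against 0.423% of all, and so were 2 half-sites AGGNCA spaced by 1 base, as PPARs use, against 0.381%. A match of letters is a description and not a site of binding. The 250 bases before the start site are shown for 4 members, to be read side by side. They are a riser with 2 matches (Plin1), a riser of glycerol supply (Gpd2), the lipin that fell (Lpin2) and the single match of TGACGTCA (Pnpla3). Capitals mark the matches, and the sequences are 5′ to 3′ on the strand of the gene. The Plin1 stretch is chr7:79732777-79733026 on the minus strand, with matches that begin 187 and 58 bases before the start site. The Gpd2 stretch is chr2:57237428-57237677, the Lpin2 stretch chr17:71204404-71204653 and the Pnpla3 stretch chr15:84167566-84167815, all on the plus strand, with matches that begin 86, 70 and 46 bases before the start site. Gpd2 and Lpin2 each have other start sites in the table, whose promoters held none of the motifs.
Plin1: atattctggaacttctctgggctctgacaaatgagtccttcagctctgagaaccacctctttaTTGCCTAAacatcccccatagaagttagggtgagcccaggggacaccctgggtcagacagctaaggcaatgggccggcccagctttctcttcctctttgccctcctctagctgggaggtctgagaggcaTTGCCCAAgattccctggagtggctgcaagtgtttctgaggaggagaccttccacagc
Gpd2: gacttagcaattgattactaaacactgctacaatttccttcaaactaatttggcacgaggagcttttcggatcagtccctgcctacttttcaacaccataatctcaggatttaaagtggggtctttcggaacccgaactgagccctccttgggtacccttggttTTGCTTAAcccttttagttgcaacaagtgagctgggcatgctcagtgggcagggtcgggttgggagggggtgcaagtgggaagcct
Lpin2: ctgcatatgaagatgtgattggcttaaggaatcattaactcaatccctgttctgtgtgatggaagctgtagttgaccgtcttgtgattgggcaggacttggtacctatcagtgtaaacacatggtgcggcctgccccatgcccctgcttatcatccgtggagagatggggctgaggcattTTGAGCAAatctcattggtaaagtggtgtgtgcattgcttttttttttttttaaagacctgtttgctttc
Pnpla3: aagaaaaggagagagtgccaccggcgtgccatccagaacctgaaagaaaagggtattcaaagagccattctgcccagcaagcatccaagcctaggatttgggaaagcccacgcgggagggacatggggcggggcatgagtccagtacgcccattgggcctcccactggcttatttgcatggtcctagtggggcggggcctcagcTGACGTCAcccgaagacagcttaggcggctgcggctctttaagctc

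The genes grouped under glycerol supply rose, with the exception of Aqp3. The name stands for a list of genes, and the flow of glycerol or glycerol 3-phosphate was not measured. Gpd2 is the mitochondrial glycerol 3-phosphate dehydrogenase, which together with the cytosolic enzyme Gpd1 forms a shuttle of electrons into mitochondria. Its log2 intensity was 9.67, 10.17 and 10.52 in WT and 11.63, 11.91 and 11.53 in Zip13-KO iWAT. The lowest Zip13-KO array was thus about 1 log2 unit above the highest WT array. Gpd2 rose by 1.57 (standard error 0.23, adjusted p = 0.0074), which is 2.97-fold. Gpd1, which makes glycerol 3-phosphate from a glycolytic intermediate, was 15.10, 16.13 and 16.25 in WT and 17.04, 17.18 and 17.04 in Zip13-KO iWAT, with WT replicate 1 well below the other two. It rose by 1.26 (standard error 0.30, adjusted p = 0.0243).

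Aqp7, the glycerol channel of adipocytes, was 8.55, 9.07 and 9.21 in WT and 10.14, 9.93 and 10.26 in Zip13-KO iWAT. The genotypes did not overlap, and Aqp7 rose by 1.17 (standard error 0.19, adjusted p = 0.0093). Pck1, the cytosolic PEPCK that carries pyruvate-derived carbon towards glycerol 3-phosphate, went from 15.77 ± 0.24 to 16.48 ± 0.04 (SD, n = 3 each), a rise of 0.71 (adjusted p = 0.0119). Aqp3, another water and glycerol channel, overlapped between the genotypes and had a log2 fold change of -0.19 (adjusted p = 0.458).

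In esterification, each step from glycerol 3-phosphate to triglyceride had at least 1 enzyme that rose. Gpam, the mitochondrial glycerol 3-phosphate acyltransferase of the first step, was 7.63, 8.63 and 8.16 in WT and 9.32, 9.56 and 9.49 in Zip13-KO iWAT. The genotypes were apart, and Gpam rose by 1.32 (standard error 0.25, adjusted p = 0.0129), or by 1.35 with the other probe of the gene. Agpat2, the acyltransferase of the second step whose loss causes lipodystrophy, rose by 1.28 (standard error 0.33, adjusted p = 0.0293). Agpat3, an acyltransferase of the same family, rose by 0.60 (adjusted p = 0.0281), just past the fold threshold.

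The 3 lipins, phosphatases that convert phosphatidic acid to diacylglycerol, went different ways. Lpin1, the main lipin of adipose tissue, was 10.75, 11.11 and 11.77 in WT and 12.33, 12.48 and 12.41 in Zip13-KO iWAT. Lpin2, best known from liver and immune cells, was 7.99, 8.11 and 7.87 in WT and 7.15, 7.12 and 7.07 in Zip13-KO iWAT. Neither gene overlapped between genotypes, and the replicates of Lpin2 lay within 0.3 log2 units of each other in both groups. Lpin1 rose by 1.19 (standard error 0.25, adjusted p = 0.0173) and by 1.83 with its other probe, and Lpin2 fell by 0.88 (standard error 0.09, adjusted p = 0.0046). The log2 fold change of Lpin3 was -0.30 (adjusted p = 0.236), and its arrays overlapped.

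The last step is catalysed by Dgat1 and Dgat2, enzymes of unrelated sequence. Dgat1 was 11.99, 12.55 and 12.54 in WT and 13.39, 13.27 and 13.39 in Zip13-KO iWAT, a rise of 0.99 (standard error 0.16, adjusted p = 0.0098). Dgat2 was 15.25, 16.50 and 16.58 in WT and 17.29, 17.22 and 16.96 in Zip13-KO iWAT. All Zip13-KO arrays of Dgat2 lay above all WT arrays, but WT replicate 1 stood more than 1 log2 unit below the other WT arrays, and the log2 fold change of 1.04 had a standard error of 0.36 and an adjusted p of 0.069 in limma. Without that array, the log2 fold change of Dgat2 was 0.61 and the gene was called (adjusted p = 0.0203). Mogat1 and Mogat2, which acylate monoacylglycerol, had log2 fold changes of 1.16 (adjusted p = 0.0611) and 1.27 (adjusted p = 0.0781) and were not called.

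**Figure D2:**
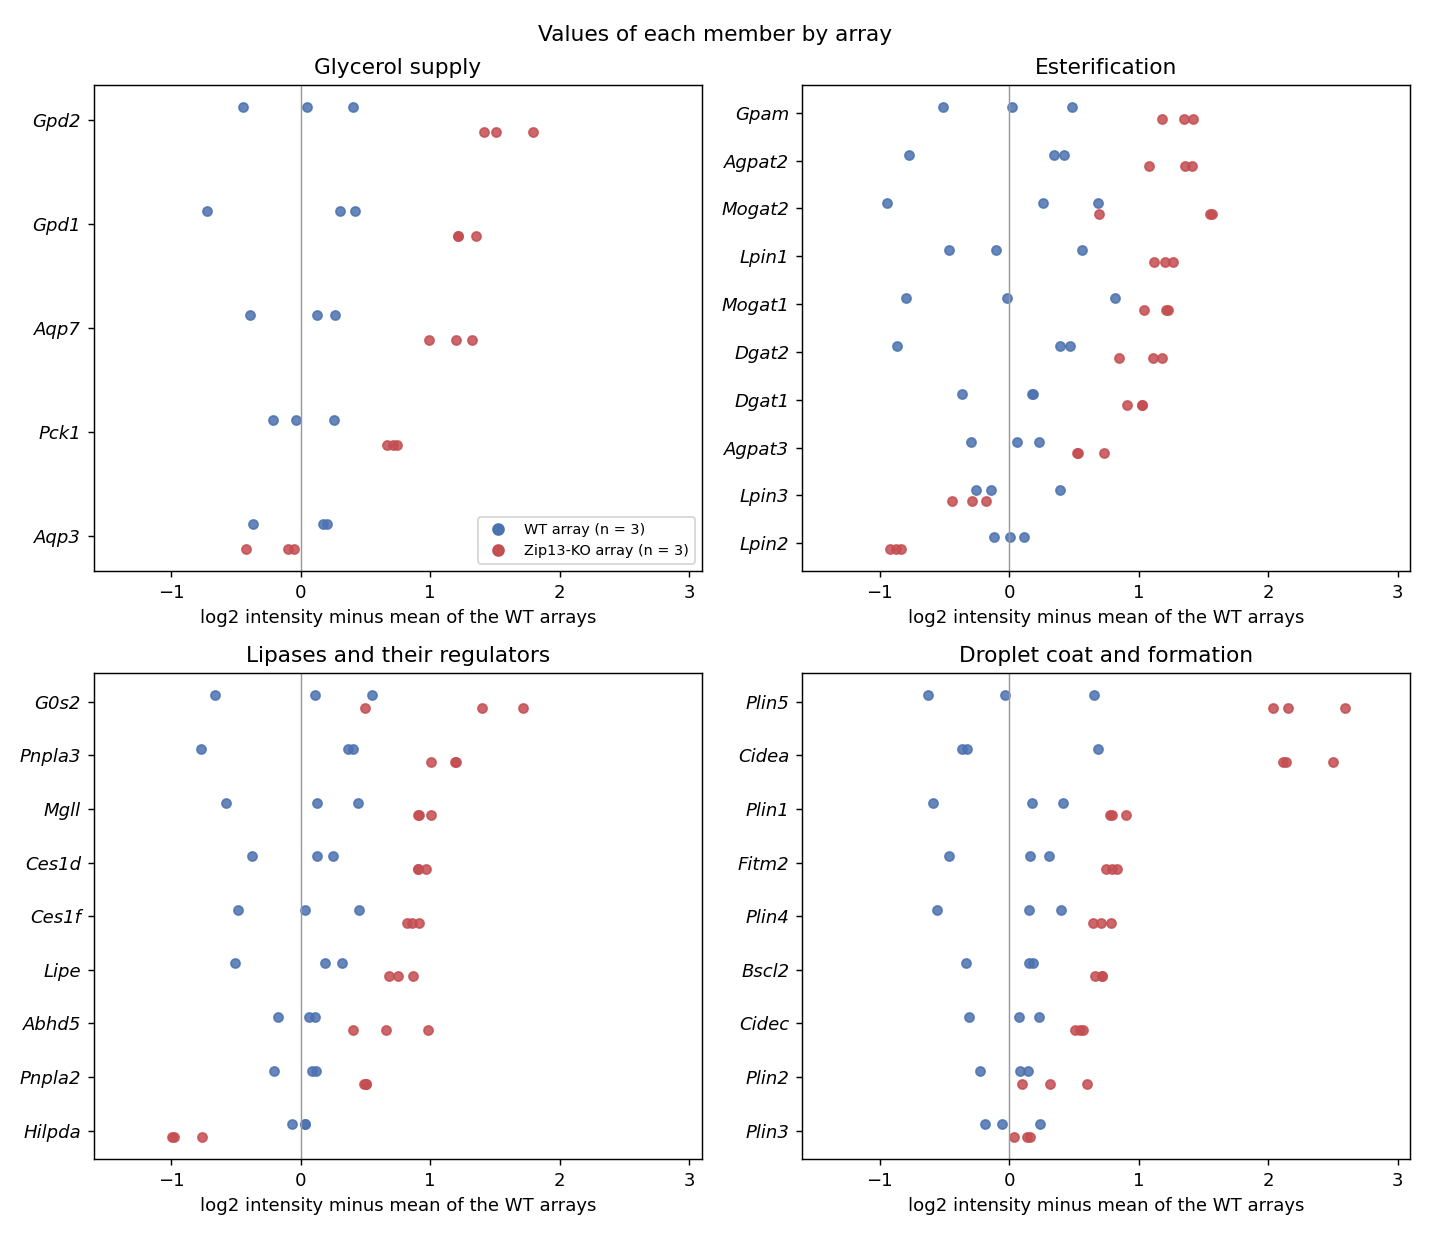
Log2 intensity of each member tested on each array minus the mean of the 3 WT arrays (x axis), by role, with WT arrays in blue and Zip13-KO arrays in red (n = 3 each). Zip13-KO points lie to the right of all WT points for 26 of 33 members and to the left for Lpin2 and Hilpda.

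Of the lipases, Pnpla2, Lipe and Mgll all lay higher in Zip13-KO iWAT, with Pnpla2 alone of these under the fold threshold. The ratio Lipe/Pnpla2, given below, overlapped between genotypes, so a difference between the steps of ATGL and hormone-sensitive lipase was not shown. A ratio of Mgll, the last step, to Pnpla2 was not among the 10 ratios tested. Pnpla2 (ATGL), which starts lipolysis, was 15.33, 15.65 and 15.62 in WT and 16.03, 16.04 and 16.02 in Zip13-KO iWAT. The Zip13-KO arrays were almost equal and above the WT arrays, with a log2 fold change of 0.50 (adjusted p = 0.0170), which is 1.41-fold. Lipe, hormone-sensitive lipase, was 11.30, 12.13 and 12.00 in WT and 12.68, 12.49 and 12.57 in Zip13-KO iWAT and rose by 0.77 (standard error 0.22, adjusted p = 0.0413). Mgll, which releases the last fatty acid, rose by 0.94 (standard error 0.25, adjusted p = 0.0334), and its 4 probes ran from 0.41 to 1.001.

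The carboxylesterases Ces1d and Ces1f, which also act on triglyceride, rose by 0.92 (adjusted p = 0.0117) and 0.86 (adjusted p = 0.0325). Ces1d was 13.50, 14.00 and 14.12 in WT and 14.77, 14.78 and 14.84 in Zip13-KO iWAT, so the genotypes were apart by more than the spread within them. Both belong to a family of closely related copies, and whether their probes also bind other family members was not tested. Pnpla3, a relative of ATGL that acts on droplets, was 9.99, 11.13 and 11.17 in WT and 11.96, 11.96 and 11.77 in Zip13-KO iWAT. It rose by 1.13 (standard error 0.32, adjusted p = 0.0391), and its promoter is the one above that holds TGACGTCA.

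The regulators of ATGL included both directions. Abhd5 (CGI-58), its co-activator, was 11.22, 11.51 and 11.46 in WT and 11.80, 12.06 and 12.38 in Zip13-KO iWAT, a rise of 0.68 (standard error 0.17, adjusted p = 0.0254). Its 3 probes ran from 0.68 to 0.95. G0s2, an inhibitor of ATGL, was 10.30, 11.51 and 11.07 in WT and 12.67, 12.36 and 11.45 in Zip13-KO iWAT. Zip13-KO replicate 3 lay below WT replicate 2, and the log2 fold change of 1.20 had a standard error of 0.42 and an adjusted p of 0.0678 in limma. Hilpda, an inhibitor of ATGL induced by hypoxia and by fatty acids, was 10.32, 10.22 and 10.32 in WT and 9.53, 9.31 and 9.29 in Zip13-KO iWAT. Its arrays were tight within each genotype and did not overlap, and it fell by 0.91 (standard error 0.09, adjusted p = 0.0046), or by 0.86 with its other probe.

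The droplet proteins held the members with the largest rise and several that were not called. Plin5, the perilipin of oxidative tissues that links droplets to mitochondria, was 9.87, 10.47 and 11.16 in WT and 12.65, 13.09 and 12.54 in Zip13-KO iWAT. Cidea, a droplet fusion protein typical of brown and beige adipocytes, was 13.77, 13.73 and 14.78 in WT and 16.21, 16.60 and 16.23 in Zip13-KO iWAT. For both genes the lowest Zip13-KO array was more than 1 log2 unit above the highest WT array. Plin5 rose by 2.26 (standard error 0.34, adjusted p = 0.0078), which is 4.79-fold, and Cidea by 2.25 (standard error 0.30, adjusted p = 0.0067), which is 4.76-fold. Both ranked above 99.8% of all genes tested when changes were ordered by sign and size, from the largest fall to the largest rise.

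The perilipins of white adipocytes moved less. Plin1, which guards the droplet against lipases and releases Abhd5 on stimulation, was 13.59, 14.59 and 14.36 in WT and 15.08, 14.96 and 14.97 in Zip13-KO iWAT. Its rise of 0.83 (standard error 0.25, adjusted p = 0.0490) was close to the threshold. Plin4, another perilipin of adipocytes, was not called at 0.71 (standard error 0.24, adjusted p = 0.0651). Plin2 and Plin3, found on droplets of most cell types, overlapped between genotypes, with log2 fold changes of 0.34 (adjusted p = 0.151) and 0.11 (adjusted p = 0.506). Cidec, which promotes the single large droplet of white adipocytes, was 15.78, 16.31 and 16.16 in WT and 16.63, 16.59 and 16.66 in Zip13-KO iWAT. Its arrays did not overlap, but the log2 fold change of 0.54 (adjusted p = 0.0331) was under the fold threshold, and its other probe gave 0.62. Bscl2 (seipin), which organizes droplet budding at the endoplasmic reticulum, rose by 0.70 (adjusted p = 0.0178), and Fitm2, a protein of droplet formation, by 0.79 (adjusted p = 0.0289). Its relative Fitm1, known from muscle, was not well above background on any array, so no difference is given.

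Members with paired or opposing roles were compared by the log2 ratio of their intensities within each array, relative to the WT mean of the ratio. The test was an exact permutation test over the 6 arrays, whose smallest two-sided p is 0.1, with p-values adjusted over 10 ratios. The ratio Lpin1/Lpin2 was -0.47, -0.22 and 0.68 in WT and 1.95, 2.14 and 2.12 in Zip13-KO iWAT, a change of 2.07. Cidea/Cidec was -0.02, -0.59 and 0.61 in WT and 1.57, 1.998 and 1.57 in Zip13-KO iWAT, a change of 1.71. Plin5/Plin1 was -0.04, -0.44 and 0.48 in WT and 1.25, 1.81 and 1.24 in Zip13-KO iWAT, a change of 1.43. In these 3 ratios every Zip13-KO array lay above every WT array, which gave the smallest p the design allows (exact permutation p = 0.1, adjusted p = 0.286), so none could pass a threshold of 0.05. The remaining ratios overlapped between genotypes. Dgat1/Dgat2 changed by -0.06 (exact permutation p = 1), Gpd2/Gpd1 by 0.31 and Lipe/Pnpla2 by 0.27 (exact permutation p = 0.2 for both). Mgll/Lipe changed by 0.18 and Plin2/Plin1 by -0.49 (exact permutation p = 0.2 for both). The ratios of activator or enzyme to inhibitor, Abhd5/G0s2 and Pnpla2/G0s2, changed by -0.52 (exact permutation p = 0.5) and -0.70 (exact permutation p = 0.3). For these ratios, the Zip13-KO arrays alone spanned more than 1 log2 unit.

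**Figure D3:**
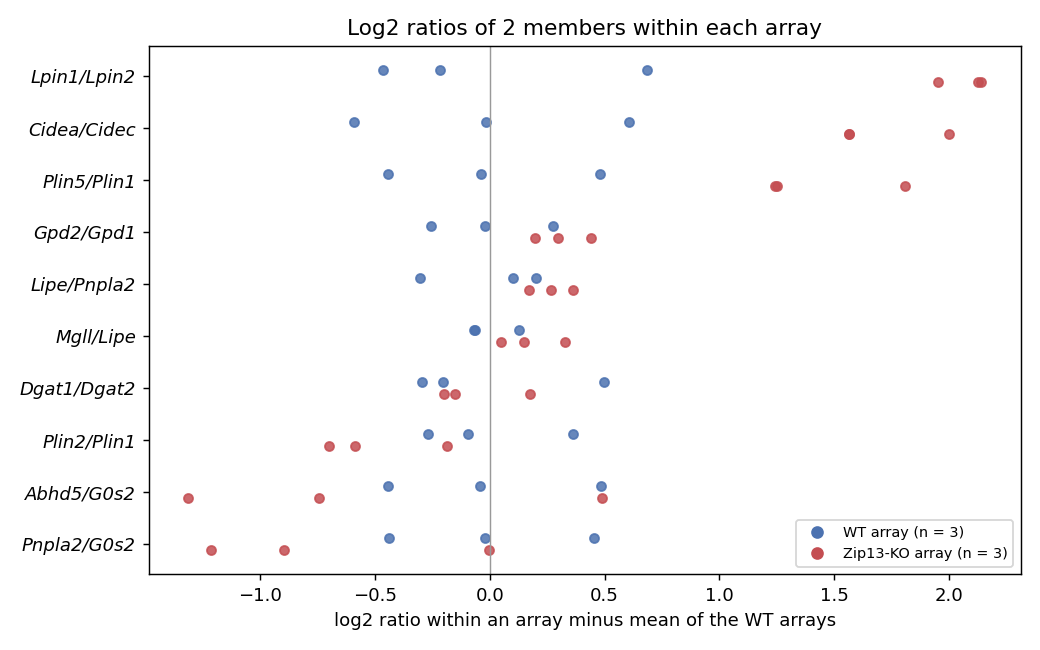
Log2 ratio of the intensities of paired members within each array, minus the mean of the WT arrays (x axis), for 10 pairs, with WT arrays in blue and Zip13-KO arrays in red (n = 3 each). The Zip13-KO arrays lie apart from the WT arrays for Lpin1/Lpin2, Cidea/Cidec and Plin5/Plin1 and overlap them for the other 7 pairs.

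Other genes of the pathway were taken from lists. In glycerol handling and glyceroneogenesis, 2 of 7 tested genes were called, both higher, with a median of 0.36, and Aqp9 was too dim to test. Gk, glycerol kinase, which lets adipocytes reuse glycerol, was 6.08, 6.53 and 6.57 in WT and 7.16, 8.26 and 7.92 in Zip13-KO iWAT. It rose by 1.39 (standard error 0.30, adjusted p = 0.0181), and Pcx, pyruvate carboxylase, by 1.14 (adjusted p = 0.0135). The lowest value was -0.19 for Gpd1l, a relative of Gpd1, which was not called. Of 9 other acyltransferases, 2 were higher and 1 lower, with a median of 0.11. The higher ones were the microsomal glycerol 3-phosphate acyltransferases Gpat3, by 1.39 (adjusted p = 0.0138), and Gpat4, by 0.84 (adjusted p = 0.0053), which share the first step with Gpam. Agpat4, a relative of Agpat2, fell by 1.11 (adjusted p = 0.0067).

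Of 11 other lipases and hydrolases, 4 were higher and 1 lower, with a median of 0.21. Ddhd2, a triglyceride and phospholipid hydrolase, rose by 1.31 (adjusted p = 0.0055), and Abhd6, a monoacylglycerol hydrolase, by 1.18 (adjusted p = 0.0055). Pnpla8, a mitochondrial and peroxisomal phospholipase, rose by 0.71 and the droplet-associated hydrolase Ldah by 0.63, with 0.28 for the other probe of Ldah. Lipa, the acid lipase of lysosomes, was 12.13, 11.16 and 11.34 in WT and 10.53, 10.61 and 10.48 in Zip13-KO iWAT and fell by 1.004 (standard error 0.25, adjusted p = 0.0268), with WT replicate 1 the highest array.

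Of 13 tested genes that control lipolysis, 7 were called, all of them higher, with a median of 0.81. The beta-adrenergic receptor Adrb1 rose by 1.58 (adjusted p = 0.0349), but its other probe gave 0.28. Adrb3, the receptor most typical of rodent fat, was not called, with a log2 fold change of 0.99 (adjusted p = 0.0782). Of protein kinase A, the regulatory subunit Prkar2b rose by 1.24 (adjusted p = 0.0085) and the catalytic subunit Prkaca by 0.60 (adjusted p = 0.0072), while Prkacb had the lowest value of the list, -0.25 (adjusted p = 0.0514). The higher genes also held brakes on lipolysis. Adora1, the inhibitory adenosine receptor, was 10.34, 10.56 and 11.27 in WT and 12.24, 12.41 and 12.20 in Zip13-KO iWAT and rose by 1.56 (standard error 0.24, adjusted p = 0.0083). The receptors Hcar1, for lactate, and Hcar2, for ketone bodies and niacin, rose by 1.27 (adjusted p = 0.0252) and 0.63 (adjusted p = 0.0332), and the phosphodiesterase Pde3b, through which insulin lowers cyclic AMP, by 0.81 (adjusted p = 0.0382). Of 10 other droplet proteins tested, 3 were called, all of them higher, with a median of 0.41. Cideb, the CIDE protein best known from liver, rose by 1.22 (adjusted p = 0.0086), the acyl-CoA synthetase Acsl3 by 1.22 (adjusted p = 0.0044) and the lipid transfer protein Vps13c by 0.84 (adjusted p = 0.0204). The lowest was Aup1, at -0.15, and Ldaf1 had no probe under this name.

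The size of the members' changes rested in part on WT replicate 1, which was the lowest WT array for 27 of 33 members. Relative to the WT mean, the members' median was -0.45, 0.19 and 0.16 on WT replicates 1 to 3 and 0.90, 0.83 and 0.80 on Zip13-KO replicates 1 to 3. Without WT replicate 1, the median log2 fold change was 0.61 and 15 members were called higher, 14 of them among the 20, while 8.06% of all genes tested were called higher. Droplet coat and formation then had 2 higher members, Plin5 and Cidea, and lipases and their regulators had 4. With Zip13-KO replicates 1, 2 and 3 left out in turn, 9, 7 and 9 members were called higher, and of all genes tested 6.28%, 6.71% and 8.43% were. Gpd2, Aqp7, Pck1, Dgat1, Ces1d, Plin5 and Cidea among the higher members, and Lpin2 and Hilpda among the lower, were called in all 6 fits that left out 1 array. Within slide position number 1, where Zip13-KO replicate 1 stands against the 3 WT arrays, all 22 called members kept their sign. The genotypes did not overlap for any of these members, so this sign could not have changed and is no check on the position. By limma with the position as a block, 0 members passed the threshold after adjustment, against 0 genes called higher and 7 called lower of all 15306 tested. The median of all members was 0.90 in this fit, with 2.15 for Plin5 (adjusted p = 0.078) and -0.84 for Lpin2 (adjusted p = 0.0585).

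Markers of cell types moved with the genotype. Of 9 adipocyte markers tested, 2 were higher, Pparg by 1.13 and Trarg1 by 1.30, and 9 lay above 0. Their median was 0.58, and their summed intensity was 619320 to 763402 on WT and 823171 to 844259 on Zip13-KO arrays. The median of the adipocyte markers was lowest on WT replicate 1, at -0.37, against 0.17 and 0.12 on the other WT arrays and 0.54 to 0.61 with Zip13-KO. The markers Cfd, Fabp4 and Car3 had log2 fold changes of 0.03, 0.20 and 0.15, but they lay near the top of the normalized scale. Cfd was 17.49 on WT replicate 2 and Zip13-KO replicate 1, and so was Car3 on Zip13-KO replicates 2 and 3. Quantile normalization gives every array the same top values, so a rise of these 3 genes could be hidden. Of 8 markers of brown or beige adipocytes, 7 were higher (Ucp1, Elovl3, Cox7a1, Otop1, Dio2, Ppara and Cox8b), with a median of 2.43, and Zic1 was not called. Ucp1 rose by 5.16, and the list summed to 22352 to 30847 on WT and 89084 to 156216 on Zip13-KO arrays. Macrophage markers fell in 6 of 8 cases (Cd68, Adgre1, C1qa, Lyz2, Mrc1 and Csf1r), with a median of -1.23 and sums of 78557 to 125937 on WT and 38317 to 48912 on Zip13-KO arrays. Of stromal progenitor markers, 3 of 7 fell (Ly6a, Dpp4 and Pdgfra), with a median of -0.71 and sums of 137131 to 264903 on WT and 117343 to 137728 on Zip13-KO arrays.

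Lymphocyte, skeletal muscle and mammary markers had 0 calls in limma and in the methods' t-test after adjustment. At an unadjusted p under 0.05 by limma, 6 of 8 lymphocyte markers were lower (median -0.38), 1 of 7 muscle markers was lower (median 0.87) and 1 of 5 mammary markers was higher (median 0.18). Csn3 and Wap, genes of milk, were not above background on any array. The muscle markers summed to 1356 to 3347 on WT and 1903 to 6971 on Zip13-KO arrays, with their highest median, 1.88, on Zip13-KO replicate 3. Of 6 endothelial markers, Cdh5 rose by 0.77. The part of the cell makeup in the members' changes was not tested.

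**Figure D4:**
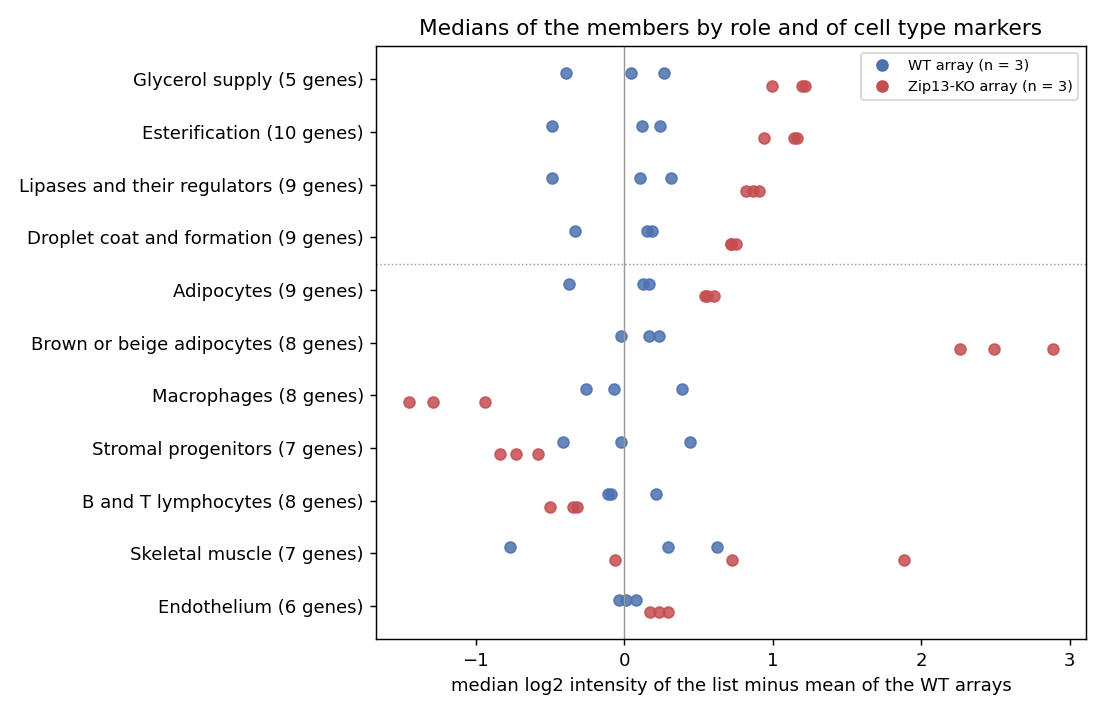
Median log2 intensity, relative to the WT mean of each gene, of the members by role (above the dotted line) and of cell type markers (below it) on each array (x axis), with WT arrays in blue and Zip13-KO arrays in red (n = 3 each). WT replicate 1 is the lowest point in each of the 4 roles and among the adipocyte markers (-0.37), and the brown or beige markers lie above 2 on each Zip13-KO array.

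When each array was shifted by the median of its adipocyte markers, a setting chosen after the data were seen, the members' median log2 fold change was 0.27. The members then called higher were Gpd1, Gpd2, Gpam, Agpat2, Lpin1, Plin5 and Cidea, with 1.67 for Plin5, 1.66 for Cidea and 0.98 for Gpd2. Lpin2 at -1.47 and Hilpda at -1.51 remained lower, and Lpin3 at -0.90 and Aqp3 at -0.78 were called lower as well. Of the lipases and their regulators, 0 were called higher by limma on this scale, with a median of 0.27 and 1, Pnpla3, higher at an unadjusted p under 0.05. Pnpla2 was at -0.095 (adjusted p = 0.647) and Cidec at -0.052 (adjusted p = 0.8), so both had the opposite sign, as had Plin2 and Plin3. Of all 15306 genes, 274 (1.79%) were called higher and 7407 (48.4%) lower on this scale, since the shift lowers all genes alike, so the 4 lower members stand below that share and say nothing particular of them. The 9 markers themselves ran from 0.03 for Cfd to 1.30 for Trarg1, so the place of 0 on this scale depends on the markers chosen.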

How the data were processed

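RNA from iWAT of WT and Zip13-KO mice was measured on Agilent 1-colour mouse arrays, 3 per genotype. The scanner files that the authors deposited, made with Feature Extraction 11.5.1.1, give the intensity of every spot as a processed signal that was already corrected for background and not normalized between arrays. The deposited values table holds log2 of the median signal without background correction, quantile normalized (scale and column of origin found by comparison with the scanner files). The members and lists were chosen with earlier results of these data known.

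The log2 processed signal was quantile normalized between the 6 arrays, as the supplementary methods state, after control and outlier spots were left out and spots of a probe averaged. Probes had to be well above background on the 3 arrays of one genotype or the other, a filter that 33046 of 55681 probes passed. Of these, 20318 were named by RefSeq accession (GRCm38.p6, versions dropped), and the brightest probe stood for a gene. Genes were compared with limma 3.58.1 (lmFit, eBayes) in R 4.3.3 and adjusted by Benjamini-Hochberg over 15306 genes. The same fit was also run on data simulated from the means and spreads of these genes. The methods call genes with an integrative test whose details are not given in the sources used here, so limma took its place with the same 1.5-fold threshold. The named genes were all members, Slc39a13, the called genes and extremes of the pathway lists, and called or leading markers. In addition, Adrb3 and the uncalled markers named in the text were chosen after their values were seen. Replicate numbers did not pair the arrays. Protein sequences were not analysed here. The number of arrays limits the precision.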

Additional observations from a re-analysis of the deposited data

How the results depend on the processing

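Direction was kept for the 33 members under all alternatives but the shift by adipocyte markers, which turned 4 uncalled members, Pnpla2 (-0.095), Plin2 (-0.26), Plin3 (-0.48) and Cidec (-0.052). The 20 members called higher (glycerol supply 4, esterification 5, lipases 6, droplet 5) became 11 with no filter on dim probes (esterification 3, lipases 2, droplet 3). With the methods' t-test after Benjamini-Hochberg adjustment they became 7 (esterification 1, lipases 1, droplet 2). At an adjusted p under 0.01 they became 5 (glycerol supply 2, esterification 1, lipases 0, droplet 2). Of all genes tested, 6.44%, 6.37% and 4.62% were called higher in these settings in turn, against 10.3% in the main fit. With that t-test unadjusted, the droplet group had 3, while 9.58% of all genes tested were called higher. Relative to adipocyte markers, where 274 of all 15306 genes were higher and 7407 lower, 7 members were higher (2, 3, 0 and 2) and 4 lower (glycerol supply 1, esterification 2), with medians of 0.27 for all members, 0.58 for glycerol supply, 0.51 for esterification, 0.27 for lipases and 0.12 for droplet proteins. With the slide position as a block, 0 members were called higher and 0 lower by limma, against 0 and 7 of all genes tested. In that fit only Zip13-KO replicate 1 bears on the contrast. Samples of the same replicate number did not deviate together (correlations of -0.02, 0.04 and -0.08). With the replicate block, 15 members were higher and 2 lower (lipases 3 higher), while 8.35% of all genes tested were higher and 6.87% lower. Leaving out 1 array gave 7 to 23 members higher (glycerol supply 3 to 4, esterification 1 to 6, lipases 1 to 6, droplet 2 to 7) and 2 lower. Of all genes tested, 6.28% to 10.9% were then higher and 5.11% to 9.51% lower. The other scalings, background corrections, the deposited table, the filter on all 6 arrays, averaging of a gene's probes, the intensity trend and the absence of a fold threshold gave 18 to 23 members higher and 2 lower. Of all genes tested, 19.3% were higher without a fold threshold and 7.55% to 11.6% under the rest of these settings. The 10 ratios were run under 9 alternatives, and their changes moved by less than the spread between replicates in each. Most of these alternatives left out 1 array. With 3 arrays per genotype this always moves a mean by less than the SD of its group, so it is no check. Dim probes, and with them Fitm1, are limited by their signal over background.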
